A study of Homo sapiens with 4 samples.

Results

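Replication-type histone genes encode the core histones H2A, H2B, H3 and H4 and the linker histone H1 that package newly copied DNA. On the arrays of 2 colorectal cancer lines, each modified for CDX1 or carrying a vector, they were read by 78 of 54675 probe sets, the groups of short probes that each read a transcript. The members were all probe sets whose platform symbol began with H1-, H2AC, H2BC, H3C or H4C followed by a digit. Of these, 58 were annotated to a single gene, 50 of the 19775 genes with a reading of their own, and 20 to several histone genes at once. By class the single-gene probe sets were 14 for H1, 11 for H2A, 15 for H2B, 8 for H3 and 10 for H4. The symbol rule also took in 4 entries that encode no protein, H1-10-AS1, an antisense RNA beside H1-10, and the pseudogenes H1-9P, H2AC5P and H4C10P.

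Most histone mRNAs are made in S phase and end in a stem-loop in place of a poly(A) tail. The stem-loop binding protein SLBP takes them through processing, and they are broken down when DNA synthesis stops. Some members of the clusters, H2AC6, H2BC12, H2BC5 and H2BC21 among them, are known to give polyadenylated transcripts as well, which have been described in differentiated cells. The priming step of the labelling was not given in the sources used here, so how far stem-loop mRNAs entered these readings was not known.

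The 4 arrays formed 2 pairs, with 1 array per line and modification. Each was labelled by the line and what was done to it: HCT116-CDX1 and HCT116-Vec, both from HCT116, a human colorectal carcinoma line, and LS174T-siCDX1 and LS174T-siVec, both from LS174T, a human colon adenocarcinoma line. CDX1 encodes a homeobox protein, a transcription factor of the intestinal epithelium. From the names alone, HCT116-CDX1 was read as CDX1 introduced, LS174T-siCDX1 as CDX1 silenced, and Vec and siVec as their vector controls. The constructs, and whether a line was 1 clone, were not given in the labels. Values are RMA expression on the log2 scale, 1 unit of which is 2-fold. A probe set was taken as measured where the brighter of 2 arrays stood at 6 or more, and "rose", "fell" and "changed" are kept for measured probe sets that differed at least 2-fold. A group of 1 array has no replicate, so no difference within a pair carries an error, and precision is limited by having 4 arrays.

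CDX1 read 8.24 on the array labelled HCT116-CDX1 and 8.21 on HCT116-Vec, and it read 9.06 in LS174T-siCDX1 and 10.46 in LS174T-siVec. The CDX1 probe set therefore did not bear out the label in HCT116, and whether it can read an introduced construct was not given in the sources used here. KRT20, the keratin gene the series is titled for, read 9.38 on the array labelled HCT116-CDX1 and 6.36 on HCT116-Vec, and 5.45 in LS174T-siCDX1 and 8.15 in LS174T-siVec. Every direction given for the HCT116 pair rests on its label. Array medians lay between 7.04 and 7.06. Of 8 epithelial marker genes 7 or 8 stood at 6 or more on each array, with medians from 10.19 to 12.05. For 10 marker genes of blood, fibroblasts and endothelium the medians ran from 6.58 to 6.80 and the highest level was 8.17. A level of 6 thus does not by itself show that a gene was expressed.

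The promoters of H2AC6, H2BC12, H2BC21, H2BC5 and H3C6 are shown because H2AC6, H2BC12 and H3C6 passed 2-fold in a pair, and because H2BC21 and H2BC5 are the other members singled out from earlier results of these arrays. Each window is the RefSeq promoter of build GRCh38.p14, running 250 bases before to 50 after the annotated start, 5′ to 3′ on the gene's own strand. They lie at chr6:26123922-26124221 on the plus strand (H2AC6), chr6:27146809-27147108 on the minus strand (H2BC12), chr1:149886633-149886932 on the minus strand (H2BC21), chr6:26157871-26158170 on the plus strand (H2BC5) and chr6:26223928-26224227 on the plus strand (H3C6). Capitals mark the octamer ATTTGCAT on either strand, the element bound by the POU factor OCT1 at H2B genes, and in H2BC5 the closest stretch to it.
H2AC6: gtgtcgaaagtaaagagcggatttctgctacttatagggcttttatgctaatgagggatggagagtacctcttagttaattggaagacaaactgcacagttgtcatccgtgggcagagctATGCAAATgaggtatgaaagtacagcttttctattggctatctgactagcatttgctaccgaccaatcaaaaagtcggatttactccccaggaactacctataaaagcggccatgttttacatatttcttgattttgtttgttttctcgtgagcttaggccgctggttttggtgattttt
H2BC12: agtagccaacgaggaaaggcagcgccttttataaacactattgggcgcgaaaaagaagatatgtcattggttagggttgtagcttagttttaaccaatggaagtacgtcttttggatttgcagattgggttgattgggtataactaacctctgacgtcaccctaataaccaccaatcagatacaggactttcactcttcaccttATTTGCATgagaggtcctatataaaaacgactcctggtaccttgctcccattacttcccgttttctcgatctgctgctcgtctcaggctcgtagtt
H2BC21: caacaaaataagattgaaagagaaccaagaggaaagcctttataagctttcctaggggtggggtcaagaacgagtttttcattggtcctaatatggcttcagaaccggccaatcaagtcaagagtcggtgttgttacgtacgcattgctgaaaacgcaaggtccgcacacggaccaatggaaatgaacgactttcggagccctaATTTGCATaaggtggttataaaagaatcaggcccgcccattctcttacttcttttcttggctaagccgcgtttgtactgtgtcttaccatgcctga
H2BC5: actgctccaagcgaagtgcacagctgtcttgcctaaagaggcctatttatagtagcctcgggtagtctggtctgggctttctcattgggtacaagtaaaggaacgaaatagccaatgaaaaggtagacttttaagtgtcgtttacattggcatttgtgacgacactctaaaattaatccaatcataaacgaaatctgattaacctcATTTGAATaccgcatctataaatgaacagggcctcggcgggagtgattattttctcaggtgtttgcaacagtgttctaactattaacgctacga
H3C6: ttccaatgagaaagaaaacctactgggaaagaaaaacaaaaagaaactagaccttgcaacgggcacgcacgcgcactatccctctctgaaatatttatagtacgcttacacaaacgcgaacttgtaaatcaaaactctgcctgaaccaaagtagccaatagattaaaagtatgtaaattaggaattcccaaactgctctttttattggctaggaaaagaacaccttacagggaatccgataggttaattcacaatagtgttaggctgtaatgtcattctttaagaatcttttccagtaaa

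The octamer began at position -46 from the start in both H2BC12 and H2BC21, and on the opposite strand at -130 in H2AC6. H2BC5 had no exact octamer; its closest stretch on the gene's strand, ATTTGAAT at -44, carries the substitution C6A, counted from 1 at the 5′ end of the octamer. The window of H3C6 held no exact octamer. A promoter was listed for 43 of the 50 single-gene members. The octamer was found in 10 of 13 H2B promoters and 6 of 8 H2A promoters, and in 0 of 9 H1, 0 of 6 H3 and 0 of 7 H4 promoters. Among 35116 listed human promoters of the same length 1.77% held it, and 17.1% held it with at most 1 mismatch. The motif CCAAT was in 37 of the 43 member promoters against 34.6% of all, and TATAAA in 28 of 43 against 11.5%, each counted on both strands; the letters of neither lie within the octamer. H2AC6 is transcribed away from its neighbour H2BC4, and 255 bases of their promoter windows are shared. Both are counted as holding the octamer, so a site in the shared bases enters the H2A and the H2B count alike. Other members were not checked for shared windows, so the promoters counted are not all separate sequences.

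Levels varied widely among the members. Of the 58 single-gene probe sets 40 reached 6 on at least 1 array and 35 on all 4, while 18 stayed under 6 on every array. The measured ones were 13 of 14 for H1, 9 of 11 for H2A, 8 of 15 for H2B, 5 of 8 for H3 and 5 of 10 for H4. Among those never measured were H2BC3, H2BC11, H2BC14, H2BC17, H3C1, H3C7 and H4C7. Names ending in _x_at or _s_at mark probe sets with probes that also match other transcripts. There were 14 of them among the single-gene members, 6 in H2B, and 9 of the 20 several-gene probe sets had such names. The remaining several-gene probe sets lack the mark, so its absence does not show that a single gene was read. Histone genes are close in sequence, so readings of H2B genes by _x_at probe sets are uncertain as separate genes.

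H2AC6, which encodes a core H2A, had the largest differences of its class in both pairs. Its 1 probe set, of the _s_at kind, read 9.75 on the array labelled HCT116-CDX1 and 8.52 on HCT116-Vec, and 8.42 in LS174T-siCDX1 and 9.49 in LS174T-siVec. It rose by 1.23 on the log2 scale, or 2.35-fold, in the first pair and fell by 1.07, or 2.10-fold, in the second. The 2 arrays with more CDX1 by label, 1 in each line, were both above the 2 with less.

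H2BC12, which encodes a core H2B, was read by 1 probe set with no shared-transcript mark. It stood at 11.45 on the array labelled HCT116-CDX1 against 10.68 on HCT116-Vec, a difference of 0.78. In LS174T-siCDX1 it stood at 9.90 against 11.01 in LS174T-siVec, and it fell by 1.11, or 2.16-fold. Here too both arrays with more CDX1 by label were above the other 2.

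H2BC21, an H2B gene of the chromosome 1 cluster, came close to 2-fold in the HCT116 pair. Its levels were 7.92 on the array labelled HCT116-CDX1 and 6.92 on HCT116-Vec, a difference of 0.998 that lies just under the threshold of 1. They were 7.17 in LS174T-siCDX1 and 8.04 in LS174T-siVec, a difference of -0.87. Its 1 probe set is of the _s_at kind, and both arrays with more CDX1 by label were above the other 2.

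H2BC5, a core H2B gene of chromosome 6, was read by 2 probe sets, both of the _x_at kind. By the one with the higher mean level it stood at 10.94 on the array labelled HCT116-CDX1 and 9.97 on HCT116-Vec, and at 8.92 in LS174T-siCDX1 and 9.53 in LS174T-siVec, with differences of 0.97 and -0.61. By the other the differences were 0.31 and -0.20, so the signs matched and the sizes did not. On both probe sets the 2 LS174T arrays were below the 2 HCT116 arrays.

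**Figure D1:**
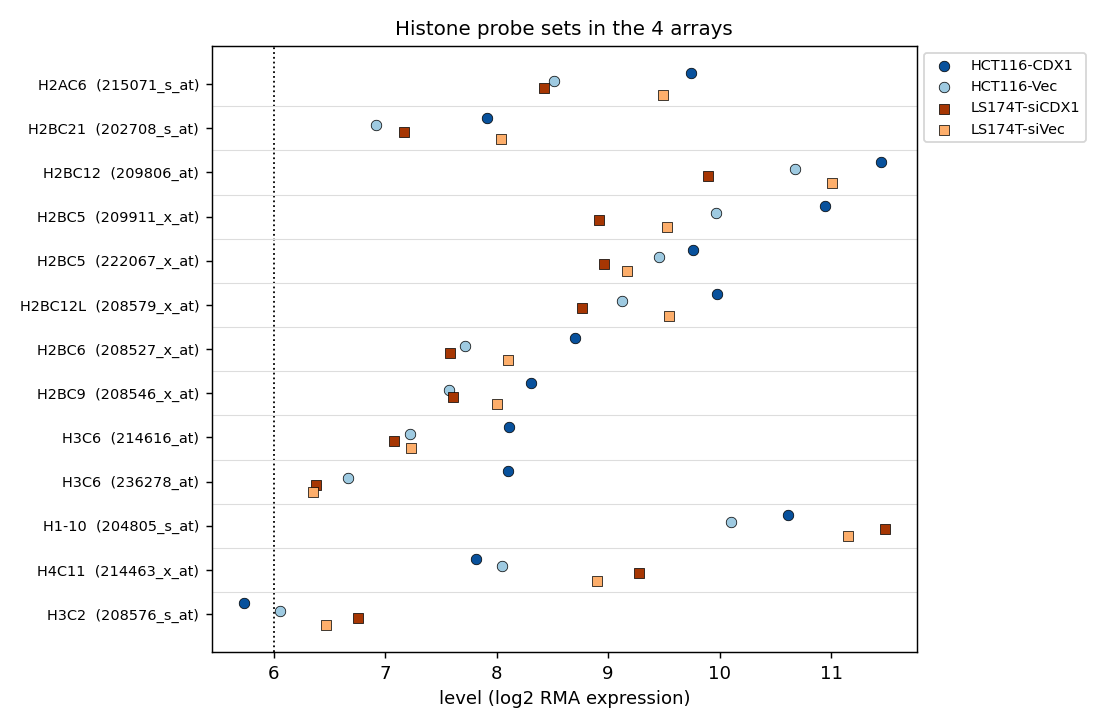
Levels of 13 histone probe sets, on the x axis in log2 RMA expression, in the 4 arrays, 1 symbol per array with HCT116 as circles and LS174T as squares; the dotted line is the level of 6. The dark circle, the array labelled HCT116-CDX1, lies right of the light one in the 8 upper readings, and the dark square, LS174T-siCDX1, lies left of the light one there.

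Among the other H2B readings, those of H2BC12L, H2BC6 and H2BC9 ran the same way as these genes. That of H2BC13 did not in the LS174T pair. The H2B counts and medians given here include H2BC12, H2BC21 and H2BC5, which were singled out with results of these arrays known. They are a description. Among 8 measured single-gene H2B probe sets 8 were higher on the array labelled HCT116-CDX1 than on HCT116-Vec, with a median difference of 0.82 and a range from 0.18 to 0.998. In LS174T-siCDX1 against LS174T-siVec 7 of the 8 were lower, with a median of -0.57 and a range from -1.11 to 0.12. Over all measured probe sets of the array the medians were 0.01 and -0.0035 and the central 95% of differences ran from -0.73 to 0.67 in the HCT116 pair and from -0.61 to 0.49 in the LS174T pair. Beside H2BC12, H2BC21 and H2BC5, the H2B gene H2BC12L read 9.98 on the array labelled HCT116-CDX1 against 9.12 on HCT116-Vec, and 8.76 in LS174T-siCDX1 against 9.55 in LS174T-siVec. H2BC6 read 8.70 against 7.71 and then 7.58 against 8.10 in the same order of arrays, and H2BC9 read 8.31 against 7.57 and then 7.60 against 8.01. The reading of H2BC13 was 6.12 on the array labelled HCT116-CDX1 against 5.94 on HCT116-Vec, and 6.49 in LS174T-siCDX1 against 6.37 in LS174T-siVec, without the pattern of the others. Of these 8 probe sets, H2BC12 and H2BC13 were read by ones with no shared-transcript mark; the other 6 were of the _x_at or _s_at kind and had medians of 0.92 and -0.57. How much the marked probe sets read from H2BC12 or from one another was not tested.

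The other classes showed no common shift in their medians, but many of their readings were low. H1-6, H1-7, H1-8 and H1-9P stood between 6.02 and 7.10 on every array, and H2AC15 and H2AC5P between 5.88 and 6.90. A median over such levels does not show how the expressed genes of a class differed. For the 9 measured H2A probe sets the median difference was 0.08 on the array labelled HCT116-CDX1 and -0.03 in LS174T-siCDX1, each against its vector, and 1 of the 9, H2AC6, passed 2-fold in each pair. H2AC25, by its higher-mean probe set, stood at 9.79 on the array labelled HCT116-CDX1 and 9.59 on HCT116-Vec, and at 9.43 in LS174T-siCDX1 and 9.49 in LS174T-siVec. The 13 H1 probe sets had medians of 0.08 and 0.02. In H1-2, a linker histone of somatic cells, the levels were 8.80 on the array labelled HCT116-CDX1 and 8.14 on HCT116-Vec, and 8.47 in LS174T-siCDX1 and 8.70 in LS174T-siVec. H1-10, a linker histone whose mRNA is made outside S phase as well, stood at 10.61 on the array labelled HCT116-CDX1 and 10.10 on HCT116-Vec, and at 11.48 in LS174T-siCDX1 and 11.15 in LS174T-siVec, so it was higher in each modified line than in its vector control.

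**Figure D2:**
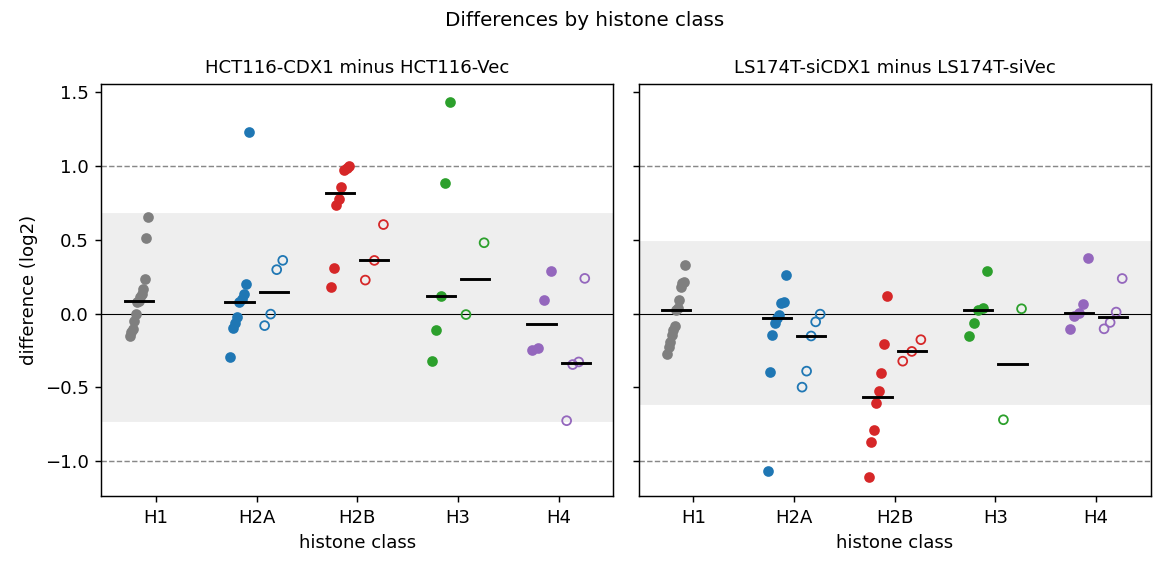
Difference within each pair on the log2 scale, by histone class on the x axis, for measured probe sets annotated to 1 gene (filled) or to several genes of the class (open); 2 probe sets annotated to both H2A and H3 genes are not drawn. Bars are medians, dashed lines 2-fold, and the grey band holds the central 95% of all measured probe sets. H2B has medians of 0.82 and -0.57, while those of filled H1, H2A, H3 and H4 readings lie between -0.07 and 0.12. H2BC12, H2BC21 and H2BC5, singled out with results of these arrays known, are among the H2B readings.

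H3C6, which encodes a replication-type H3, differed in the HCT116 pair and barely in the LS174T pair. By the probe set with the lower mean level it stood at 8.10 on the array labelled HCT116-CDX1 and 6.67 on HCT116-Vec, and it rose by 1.43, or 2.69-fold, the largest difference of a member in either pair. The LS174T levels of that probe set were 6.38 in LS174T-siCDX1 and 6.36 in LS174T-siVec. Its other probe set read 8.11 on the array labelled HCT116-CDX1 and 7.23 on HCT116-Vec, a difference of 0.88, and 7.08 in LS174T-siCDX1 and 7.23 in LS174T-siVec. On both probe sets the array labelled HCT116-CDX1 was above the other 3; whether the lines differ in this was not tested. Neither probe set is marked as shared, but probe sets annotated to several H3 genes also lack the mark. Its absence does not show that H3C6 alone was read.

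Of the remaining single-gene H3 readings, from H3C2, H3C3 and H3C8, none passed 1.5-fold in either pair. Over the array 3.53% were higher and 4.78% lower by that much in the HCT116 pair, and 1.58% and 2.74% in the LS174T pair. Finding none among so few is near the background. H3C3 stood between 6.11 and 6.37 on every array. H3C2 stood at 5.73 on the array labelled HCT116-CDX1 and 6.05 on HCT116-Vec, and at 6.75 in LS174T-siCDX1 and 6.47 in LS174T-siVec. H3C8 differed by 0.12 and -0.06. In the H4 class the medians were -0.07 over 4 probe sets and 0.00 over 5. H4C11 stood at 7.82 on the array labelled HCT116-CDX1 and 8.05 on HCT116-Vec, and at 9.28 in LS174T-siCDX1 and 8.90 in LS174T-siVec, so H4C11 and H3C2 ran opposite to the H2B genes in both pairs, each by less than 1.5-fold.

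Probe sets annotated to several genes name no single gene, and 16 of the 20 were measured. The 3 measured H2B ones had medians of 0.36 and -0.26, on the same side of 0 as the single-gene H2B readings in each pair. For H2A, 2 of 4 were higher in the HCT116 pair, with a median of 0.15. In the LS174T pair 5 of 5 were lower, with a median of -0.15. H2AC19 and H2AC18 were the annotation of 3 probe sets, the brightest differing by 0.30 and -0.50. The next differed by 0.36 and -0.39, and the dimmest by -0.08 and -0.0039. The same 14 H4 genes were the annotation of 5 probe sets, of which 4 were measured, with differences of -0.73, -0.35, -0.33 and 0.24 in the HCT116 pair. The first of these, with no shared-transcript mark, read 9.66 on the array labelled HCT116-CDX1 against 10.39 on HCT116-Vec, a difference of -0.73 and the largest in size among the several-gene readings of that pair. It read 11.10 in LS174T-siCDX1 and 10.87 in LS174T-siVec, and the 4 differed there by 0.24, -0.06, 0.01 and -0.10 in the same order. The same 10 H3 genes were the annotation of 2 measured probe sets, which did not read alike. One read 7.29 on the array labelled HCT116-CDX1 and 6.81 on HCT116-Vec, and 8.16 in LS174T-siCDX1 and 8.88 in LS174T-siVec, with differences of 0.48 and -0.72. The other, at 6.63 on the array labelled HCT116-CDX1 and 6.64 on HCT116-Vec, and 6.70 in LS174T-siCDX1 and 6.67 in LS174T-siVec, differed by -0.0069 and 0.03.

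Counted over the members, 2 of 39 measured single-gene probe sets rose on the array labelled HCT116-CDX1, H3C6 and H2AC6, where 0.796% of 40473 measured probe sets of the array rose; 0 fell, against 0.788%. At 1.5-fold 10 of 39 were higher, against 3.53%, and 0 were lower, against 4.78%. In LS174T-siCDX1 2 of 40 fell, H2BC12 and H2AC6, against 1.0% of 40550, and 0 rose, against 0.493%. At 1.5-fold 5 of 40 were lower there, against 2.74%, and 0 were higher, against 1.58%. Without the _x_at and _s_at probe sets 1 of 26 rose in the HCT116 pair, H3C6, and 1 of 27 fell in the LS174T pair, H2BC12. Without H2AC6, H2BC12, H2BC5 and H2BC21 the medians over the remaining members were 0.10 and -0.01, against 0.97 and -0.87 over the 5 probe sets of these 4 genes. Of the remaining members 1 of 34 rose in the HCT116 pair and 0 of 35 fell in the LS174T pair. At 1.5-fold 6 of 34 were higher and 1 of 35 was lower. Those 4 genes were singled out with results of these arrays known, so their own values, and counts that include them, are a description.

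**Figure D3:**
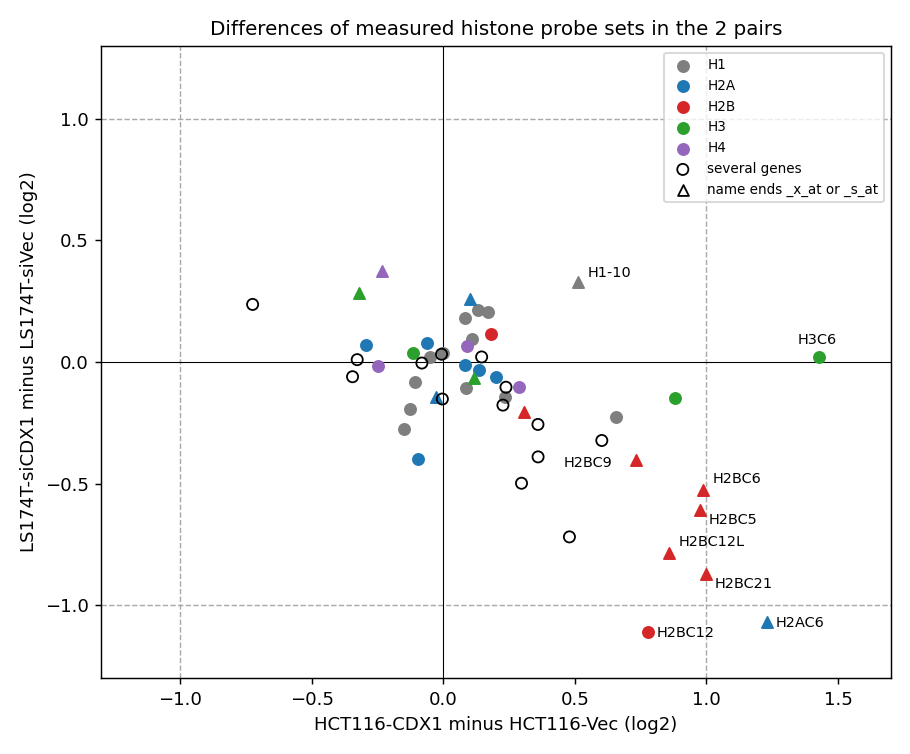
Differences of the measured histone probe sets in the HCT116 pair (x axis) and the LS174T pair (y axis), both on the log2 scale. Colours are histone classes, triangles mark names ending in _x_at or _s_at, open circles several genes, and dashed lines 2-fold; H2AC6 at 1.23 and -1.07 lies with the H2B genes at the lower right, and H3C6 at 1.43 and 0.02 lies apart.

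Both pairs together gave 5 of 39 single-gene probe sets that were at least 1.5-fold higher on the array labelled HCT116-CDX1 than on HCT116-Vec and at least 1.5-fold lower in LS174T-siCDX1 than in LS174T-siVec. They were H2AC6, H2BC12, H2BC12L, H2BC21 and H2BC5 by its higher-mean probe set, and 0.317% of the 39058 probe sets measured in both pairs did so. All but H2BC12L belong to the genes singled out with results of these arrays known, so this count is a description. In the opposite combination there were 0 members, against 0.105%. The array labelled HCT116-CDX1 and LS174T-siVec both stood above HCT116-Vec and LS174T-siCDX1 for 13 of 40 members, against 9.03% of the array. Beside H2AC6, H2BC12, H2BC12L, H2BC21, H2BC6 and H2BC9 these were H1-2, H1-3, H4C9, H2AC4 and the higher-mean probe set of H3C6, with 1 probe set each of H2AC15 and H1-7. Both stood below in 1 member, the pseudogene H2AC5P, against 8.6%. H2BC5 is not among the 13, because its HCT116-Vec level was above that of LS174T-siVec. Membership of the 13 takes no account of the size of a difference. H2AC4 read 7.067 on the array labelled HCT116-CDX1 and 7.073 in LS174T-siVec, against 6.986 in HCT116-Vec and 7.062 in LS174T-siCDX1. The H2AC15 probe set stood between 5.88 and 6.05 on all arrays. H2AC6, H2BC12 and H2BC21 are again genes singled out with results of these arrays known.

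A limma model over the 4 arrays, with terms for line and for CDX1 by label, left 1 residual degree of freedom. After limma pooled the spread across probe sets the total was 4.74, so its errors rest mostly on that pooled spread. They are not replicate errors. For the CDX1 label, more against less, 0 of 40 members and 0 of 41965 probe sets, or 0%, passed an adjusted p of 0.05; at an unadjusted p under 0.05 there were 7 members, all higher with more CDX1 by label, and 1427 probe sets. The coefficients were 1.15 ± 0.15 (SE) for H2AC6, 0.94 ± 0.16 for H2BC12, 0.93 ± 0.15 for H2BC21, 0.82 ± 0.14 for H2BC12L and 0.79 ± 0.17 for H2BC5 by its higher-mean probe set, each with a limma adjusted p of 1. The differences of these members therefore did not pass a test across the array in this design of 4 arrays.

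Between the lines, LS174T-siVec was set against HCT116-Vec. H2BC21 was higher by 1.12, or 2.18-fold, with levels of 8.04 in LS174T-siVec and 6.92 in HCT116-Vec, and H1-10 by 1.05, or 2.07-fold, with 11.15 and 10.10. These were the 2 of 40 members that rose, against 5.88% of 41063 probe sets, and 0 fell, against 5.98%. H2AC6 was 0.97 higher in LS174T-siVec. H2BC5 was lower, at -0.44 and -0.29 by its 2 probe sets, and H3C6 was at -0.31 by the lower-mean one. In the limma fit over all 4 arrays 3 of 40 members passed for LS174T against HCT116, where 15.6% of probe sets did: H4C11 at 1.15 ± 0.15 (adjusted p = 0.0116), H3C2 at 0.72 ± 0.14 (adjusted p = 0.036) and H2BC5 by its higher-mean probe set at -1.23 ± 0.17 (adjusted p = 0.0133). The 2 arrays of a line are modified differently and stand in for replicates in that fit. Its errors and p-values rest on the spread left after both terms, pooled across probe sets, and do not measure replicate spread.

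Genes that supply and handle histones were read from 4 gene lists, 1 probe set a gene. Of 23 measured genes, from 24 listed, of S phase and DNA replication 22 were lower on the array labelled HCT116-CDX1 than on HCT116-Vec, with a median of -0.44, and 20 were higher in LS174T-siCDX1 than in LS174T-siVec, with a median of 0.22. Over all genes the medians were -0.01 and -0.01. Past 2-fold, 0.916% of 16914 genes were higher and 0.97% lower on the array labelled HCT116-CDX1, and 0.598% of 16896 were higher and 1.25% lower in LS174T-siCDX1, so counts of 0 or 1 in lists of this size are near the background. The list thus ran opposite to the H2B probe sets in both pairs. POLE2, a subunit of DNA polymerase epsilon, fell by 1.16 on the array labelled HCT116-CDX1 and differed by 0.52 in LS174T-siCDX1; it was the 1 gene of the list past 2-fold. PCNA, the sliding clamp, differed by -0.75 and -0.11, ORC1, of the origin recognition complex, by -0.75 and 0.18, and GINS2, of the replicative helicase, by -0.65 and 0.17. Their part in the histone differences was not tested.

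Among 22 measured genes, from 24 listed, of histone mRNA synthesis and processing 0 passed 2-fold in either pair, and the medians were -0.11 and 0.07. Over all genes 0.916% were higher and 0.97% lower in the HCT116 pair, and 0.598% and 1.25% in the LS174T pair. A count of 0 in this list and those below is therefore near the background. ERI1, an exonuclease that acts on the histone stem-loop, differed by -0.84 and -0.03. CSTF2, a cleavage factor, differed by -0.34 and -0.58, the checkpoint kinase gene ATR by -0.26 and 0.53, and NPAT, the coactivator of histone gene transcription, by 0.49 and 0.16. Of 21 histone chaperone genes 16 were lower on the array labelled HCT116-CDX1 and 15 were higher in LS174T-siCDX1, each against its vector, with medians of -0.19 and 0.11 and 0 past 2-fold. ASF1A, which hands H3 and H4 to other chaperones, differed by -0.72 and -0.19, the acetyltransferase gene HAT1 by -0.48 and -0.05, UBN1 by -0.47 and 0.07 and NASP by -0.38 and 0.22. The 8 measured replacement variants, from 11 listed, had medians of -0.25 and 0.08 and 0 past 2-fold. Among them MACROH2A2 differed by -0.26 and 0.56, H2AZ2 by -0.49 and 0.04, the centromeric CENPA by -0.48 and 0.12 and H2AJ by -0.36 and -0.07.

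**Figure D4:**
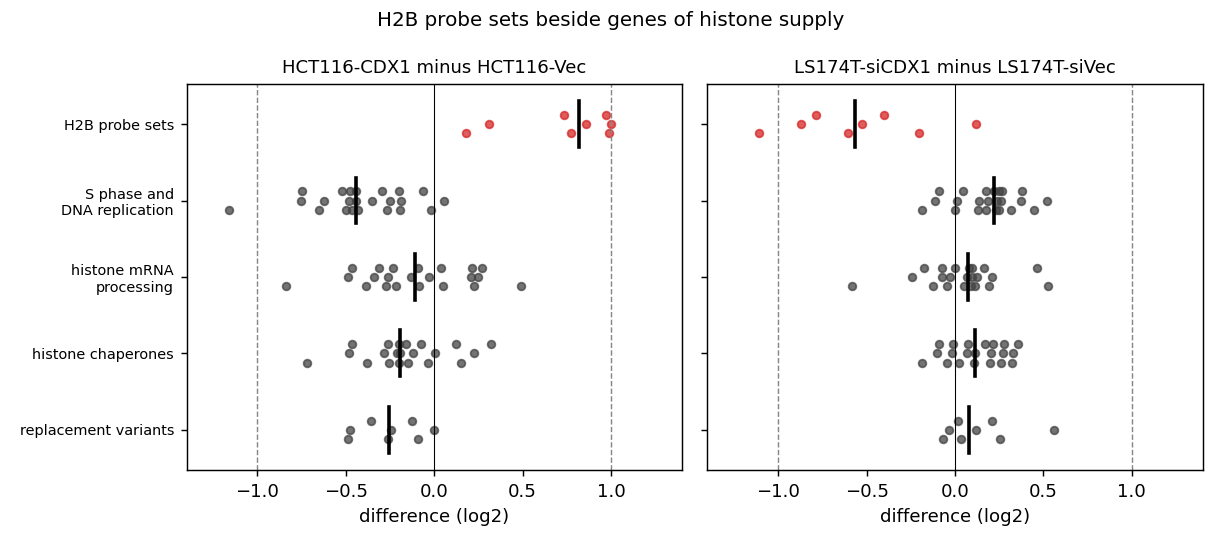
Differences on the log2 scale (x axis) within each pair for measured single-gene H2B probe sets and for genes of 4 lists, 1 point per probe set or gene; bars are medians and dashed lines 2-fold. The H2B medians of 0.82 and -0.57 have the opposite sign to those of the S phase genes, -0.44 and 0.22. H2BC12, H2BC21 and H2BC5, singled out with results of these arrays known, are among the H2B probe sets.

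Within H2A and H2B the differences were also set beside the octamer of the promoters shown above. In the HCT116 pair 4 H2B probe sets of genes with the octamer ran from 0.73 to 0.998 and 3 without it from 0.18 to 0.97. Those without it were H2BC5, by both its probe sets, and H2BC13, which stood near 6. In the LS174T pair they ran from -1.11 to -0.40 and from -0.61 to 0.12. The 4 H2A probe sets with the octamer included H2AC6 and had medians of 0.09 and 0.03. The 4 without it, of H2AC15 and H2AC25 by both probe sets of each, had medians of 0.05 and -0.10. H2BC12L, which has no listed promoter, is in neither H2B group. These are counts of few probe sets, and the part of the octamer in the differences was not tested.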

How the data were processed

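Total RNA of 2 colorectal cancer lines, each in 2 modified forms, was hybridised to 4 arrays, whose titles gave the groups. Per the labels' protocols, RNeasy was used to extract RNA and an Enzo kit to make biotin-labelled cRNA. Per the submitters' processing notes the arrays were processed with RMA; its version, and which arrays shared a normalisation, are not given in the sources used here. Values deposited by the authors are log2 expression of 54675 probe sets and were used unchanged; no array column was left out.

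Symbols came from the platform annotation. All 58 single-gene members matched RefSeq genes of GRCh38.p14 by gene identifier. Backgrounds leave out 62 control probe sets. Differences within a pair carry no test. limma 3.58.1 (R 4.3.3) was fitted to all probe sets reaching 6 on any array (41965), adjusting p-values by Benjamini-Hochberg across these, and was tested on simulated data. Other steps used Python 3.11.15, pandas 2.3.3 and statsmodels 0.14.6. For lists, each gene took its single-gene probe set of highest mean level.

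The members, lists and tests were chosen with earlier results of these data known. Named members were H2AC6, H2BC12, H2BC5 and H2BC21, those past 2-fold, the 3 largest differences each way in a comparison, the member of highest mean level in each class, and up to 4 genes per list. H2BC12L, H2BC6, H2BC9, H2BC13, H1-2, the unmeasured genes, the remaining members of small counts and the several-gene probe sets were named after their values were seen. Alternatives were the floor, quantile normalization, a loess (span 0.3), levels under 6 set to 6, the choice of probe sets, the fold, and the terms of the limma fit.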

Additional observations from a re-analysis of the deposited data

Results flagged for a closer look

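H1-10 was the named member whose differences had the same sign in both pairs and at least 0.2 in size, although CDX1 was raised by label in one and lowered in the other. It was 0.51 higher on the array labelled HCT116-CDX1 than on HCT116-Vec, and 0.33 higher in LS174T-siCDX1 than in LS174T-siVec. Its probe set is of the _s_at kind, and whether its response to the CDX1 label differs between the lines was not tested.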

How the results depend on the processing

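The titles carry no replicate numbers to pair arrays by. The limma fit holds the 2 pairs as its term for line. Without that term 0 members and 0 of 41965 probe sets passed for the CDX1 label. At an unadjusted limma p under 0.05 there were 4 of 40 members, against 139 probe sets, or 0.331%. Without _x_at and _s_at probe sets the count of changed members was 1 in the HCT116 pair, 1 in the LS174T pair and 0 between the vector lines, against 2 in each with all single-gene probe sets. With 1 value a gene it was 1 in the HCT116 pair, where H3C6 is then read by its higher-mean probe set. At 1.5-fold the counts were 10, 5 and 4 in the same order. At 3-fold they were 0, 0 and 0, and no share of the array past 3-fold was computed beside them. Between the vector lines 5131 of 41063 probe sets of the array were at least 1.5-fold higher and 4891 at least 1.5-fold lower. The other 26 recomputed counts, from the floor, the normalization, the several-gene probe sets, 1 value a gene in the other comparisons and the terms, trend and floor of the limma fit, stayed within 1.5 times of the values reported. Of 72 recomputed values of named members 70 kept their direction where changed and their side of 2-fold. The exceptions were H2BC5 by its higher-mean probe set in the HCT116 pair, at 1.05 after quantile normalization and 1.04 after the loess, against 0.97 as deposited. Signal limits the readings: 18 of 58 members stayed under 6 on every array.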

Other observations

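No germ-line linker histone, and no measured entry that encodes no protein, passed 1.5-fold in either pair. Over the array 3.53% of probe sets were 1.5-fold higher and 4.78% lower in the HCT116 pair. In the LS174T pair 1.58% were higher and 2.74% lower, so finding none among so few is near the background. H1-6, a testis H1, differed by -0.05 and 0.02 in the HCT116 and LS174T pairs on its higher-mean probe set, and by -0.11 and -0.08 on the other. The oocyte gene H1-8 read 6.61 on the array labelled HCT116-CDX1 and 6.48 on HCT116-Vec, and 6.43 in LS174T-siCDX1 and 6.22 in LS174T-siVec. The antisense RNA H1-10-AS1 differed by 0.08 and 0.18 in the 2 pairs, beside 0.51 and 0.33 for H1-10; without a statement of strand in the labelling the 2 readings cannot be told apart with certainty. H2BC4, the divergent neighbour of H2AC6, stayed under 6 by its single-gene probe set, with 5.94 on the array labelled HCT116-CDX1 and 5.52 on HCT116-Vec, and 5.52 in LS174T-siCDX1 and 5.70 in LS174T-siVec.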
